A study of Mus musculus with 18 samples.

Results

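The microRNA (miRNA) miR-22 was followed in the liver of male Muta™Mouse animals dosed with BaP, benzo(a)pyrene, an aromatic combustion product whose liver metabolites bind DNA. Muta™Mouse is a transgenic mouse (labelled strain 40.6) that carries a bacterial reporter gene for scoring mutations. All animals were 25 weeks old by their labels and received a gavage every day for 28 days. The 3 vehicle animals received olive oil and the dosed animals BaP in olive oil at 25, 50 or 75 mg/kg/day, with 5 animals in each dose group. A part of the liver was taken 3 days after the last dose, and RNA was hybridised to a 1-colour Agilent mouse miRNA array, 1 array for each of the 18 animals. Other control animals are not analysed here. Every group carried the same transgene, and no group was left without gavage. Whole liver tissue was measured, so fewer cells of a type and less RNA per cell cannot be told apart.

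The members were the spots of the scanner files named mmu-miR-22 that were not controls. They belonged to 2 probes, A_54_P1309 and A_54_P1310, of the 1712 probes on the array, and miR-22 was 1 of 576 names. The rule that chose miR-22 named its known roles and no measured value, but the choice was made with earlier results of these data known.

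A miRNA is cut from a hairpin, 1 arm of which is loaded into an Argonaute protein, and bases 2 to 8 of the loaded strand (the seed) pair with target messenger RNAs, which are then repressed. miR-22 is conserved among vertebrates and expressed in many tissues including liver, where it has been linked to lipid and glucose metabolism. It has also been reported as a miRNA induced by p53, the transcription factor that is activated by DNA damage, with the cell cycle inhibitor p21 among its targets. miR-34a is the best known direct p53 target among miRNAs and was used here as the comparison.

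The mature sequences below show the strand the report turns on, the other arm of the same hairpin, and miR-34a, with the seed in capitals. They are RefSeq sequences (build GRCm38.p6).

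miR-22-3p, chr11:75463772-75463793, plus strand: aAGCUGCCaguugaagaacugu

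miR-22-5p, chr11:75463734-75463755, plus strand: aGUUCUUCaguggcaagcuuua

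miR-34a-5p, chr4:150068473-150068494, plus strand: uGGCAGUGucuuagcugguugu

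The array used older names without arms. By the naming convention its mmu-miR-22 was read as miR-22-3p and its mmu-miR-22* as miR-22-5p, and this reading was not checked against probe sequences. Among 1738 mature mouse sequences in the RefSeq table, 0 others shared the seed of miR-22-3p and 0 others that of miR-22-5p, so no seed family of miR-22 could be followed. The gene Mir22 lies within Mir22hg, its long noncoding host transcript.

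miR-22 was measured far above background in every animal. Each probe had 10 spots on each array, and the scanner flagged all 180 spots of each probe over the 18 arrays as well above background. No spot was saturated. The median signal of A_54_P1309 was between 4.28 and 44.7 times the median of the negative control spots of its array, and that of A_54_P1310 between 23.6 and 109 times. The spots of a probe on an array had a median coefficient of variation of 8.03% for A_54_P1309 and 5.11% for A_54_P1310. Outlier flags removed 4 and 15 spots. Signals of different miRNAs depend on their probes, so the array does not rank miR-22 among the miRNAs of the liver.

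The other arm was close to background. Of the 18 arrays, 3 had one probe of miR-22* and 9 had the other probe well above background in at least a share of 0.5 of its spots. Neither probe was present in enough arrays of any dose group, and miR-22* was not tested. Its signal was between 0.895 and 1.67 times the negative controls.

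The log2 signal of miR-22 (the mean of its 2 probes after cyclic loess normalisation) was 11.06, 10.54 and 10.48 in the vehicle animals. At 25 mg/kg/day it was 10.90, 10.78, 10.69, 10.63 and 10.53. All 5 of these values lay inside the vehicle range. At 50 mg/kg/day it was 10.76, 10.67, 10.70, 10.49 and 10.64, again inside the vehicle range in 5 of 5 animals. At 75 mg/kg/day it was 10.40, 10.67, 10.63, 10.66 and 10.59, with 4 animals inside the vehicle range and 1 below it. The vehicle range was wide because 1 control stood at 11.06, above the other 17 arrays.

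In order of their means, the groups stood at 10.70 ± 0.14 (25 mg/kg/day, SD, n = 5), 10.69 ± 0.32 (vehicle, n = 3), 10.65 ± 0.10 (50 mg/kg/day, n = 5) and 10.59 ± 0.11 (75 mg/kg/day, n = 5). Each step between neighbours in this order was smaller than the SD of either group. The spread over all 18 animals, 10.40 to 11.06, was 0.66 on the log2 scale. This is the spread after normalisation. Before it the log2 signal of miR-22 ran from 9.48, in an animal at 25 mg/kg/day, to 11.62, in a vehicle animal. The arrays also differed in yield, with between 57 and 144 names detected by the scanner.

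**Figure D1:**
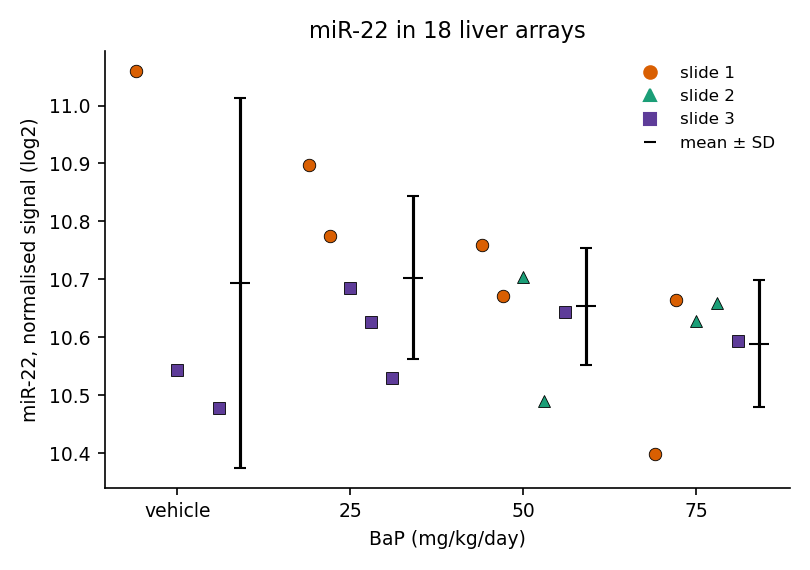
Normalised miR-22 signal (log2, vertical axis) by dose of BaP in mg/kg/day (horizontal axis), 1 point per array, with colour and shape for the slide and mean ± SD beside each group. The dosed arrays lie within the vehicle range of 10.48 to 11.06 except 1 at 75 mg/kg/day, at 10.40, and the vehicle range rests on 1 slide 1 control.

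No dose changed miR-22 beyond the threshold. With dose and slide in the model, the change from vehicle was -0.004 ± 0.096 (log2, SE) at 25 mg/kg/day, a fold change of 0.997 with a 95% interval from 0.865 to 1.15 (limma, FDR-adjusted P = 0.968). At 50 mg/kg/day the change was -0.11 ± 0.10, a fold change of 0.929 (0.796 to 1.08, FDR-adjusted P = 0.593). At 75 mg/kg/day it was -0.17 ± 0.10, a fold change of 0.889 (0.761 to 1.04, FDR-adjusted P = 0.329). The interval at the highest dose reaches down to a fold change of 0.761 and also includes no change, and the missed threshold does not show that the groups were alike.

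Few miRNAs were called in these comparisons, but more of them had an unadjusted P under 0.05. Of the 69 miRNAs tested, limma called 0 at 25 mg/kg/day (0%), 2 at 50 mg/kg/day (2.9%) and 4 at 75 mg/kg/day (5.8%). At an unadjusted P under 0.05 the counts were 7 (10.1%), 11 and 18 of the 69 in order of dose. miR-22 was in none of these calls. Its SE was the tenth largest of the 69 in each of the pairwise comparisons, 0.105 against a median of 0.063 at 75 mg/kg/day, so a change of a given size was harder to call in miR-22 than in most of them.

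The steps between doses did not pass the threshold either. miR-22 changed by -0.10 ± 0.09 from 25 to 50 mg/kg/day (limma, FDR-adjusted P = 0.669), where 1.45% of miRNAs were called, and by -0.06 ± 0.08 from 50 to 75 mg/kg/day (FDR-adjusted P = 0.936), where 1.45% were called. From 25 to 75 mg/kg/day the difference was -0.17 ± 0.09 (FDR-adjusted P = 0.423, unadjusted P = 0.0897), where 2.9% were called. The trend over all doses was -0.06 ± 0.03 on the log2 scale for each 25 mg/kg/day (FDR-adjusted P = 0.215, unadjusted P = 0.0653), and 7 of the 69 miRNAs (10.1%) had a trend past the threshold.

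Exact permutation tests of the array values, without the slide in the model, gave two-sided P = 0.964, 0.857 and 0.625 at the 3 doses (0.964 at each after Benjamini-Hochberg adjustment), where the smallest P that 56 splits allow was 0.0179. With arrays exchanged only within slides the exact P values were 0.867, 0.667 and 0.556. These designs held 30 arrangements at the lowest dose and 9 at each of the others, so they could not reach the threshold at the 2 higher doses.

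In the processing reported, the difference from vehicle had opposite signs on the 2 slides that held controls. The 18 arrays came from 3 slides: slide 1 held 1 control and 2 animals of each dose, slide 2 held 2 animals at 50 and 2 at 75 mg/kg/day and no control, and slide 3 held 2 controls, 3 animals at 25, 1 at 50 and 1 at 75 mg/kg/day. On slide 1 the control stood at 11.06 and all 6 dosed arrays lay below it. The dosed means differed from it by -0.22, -0.35 and -0.53 in order of dose. The control and the arrays at 25 mg/kg/day lay in row 1 of this slide. Those at 50 and 75 mg/kg/day lay in row 2, so on slide 1 these doses and array position cannot be told apart. With array position added to the model of all arrays, the change from vehicle was -0.06 at 50 mg/kg/day (-0.11 without it). At 75 mg/kg/day it was -0.12 (-0.17 without it). On slide 3 the 2 controls stood at 10.54 and 10.48, and 4 of the 5 dosed arrays lay above both. The differences there were +0.10, +0.13 and +0.08. Their sign depended on the processing: the authors' table gave +0.09, -0.09 and -0.27 on slide 3, and centring array medians gave -0.84, +0.40 and +0.37. How many other miRNAs stood apart from the controls of a slide in this way was not counted, so these counts are not read as a result about miR-22.

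With the 3 doses pooled, miR-22 in dosed animals differed from vehicle by -0.37 ± 0.13 on slide 1 (6 dosed arrays, 1 control) and by 0.11 ± 0.10 on slide 3 (5 dosed arrays, 2 controls). The difference between the slides in this change was 0.47 ± 0.16 (limma interaction term, unadjusted P = 0.0111, FDR-adjusted P = 0.192). It did not pass the threshold, and 1 of the 69 miRNAs (1.45%) did. The mix of doses differed between these slides and the pooled fit held no term for dose, so slide and dose mix cannot be told apart in it. On slide 2, where the doses can be compared with each other only, the arrays at 50 mg/kg/day stood at 10.70 and 10.49 and those at 75 mg/kg/day at 10.63 and 10.66, so the groups overlapped.

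**Figure D2:**
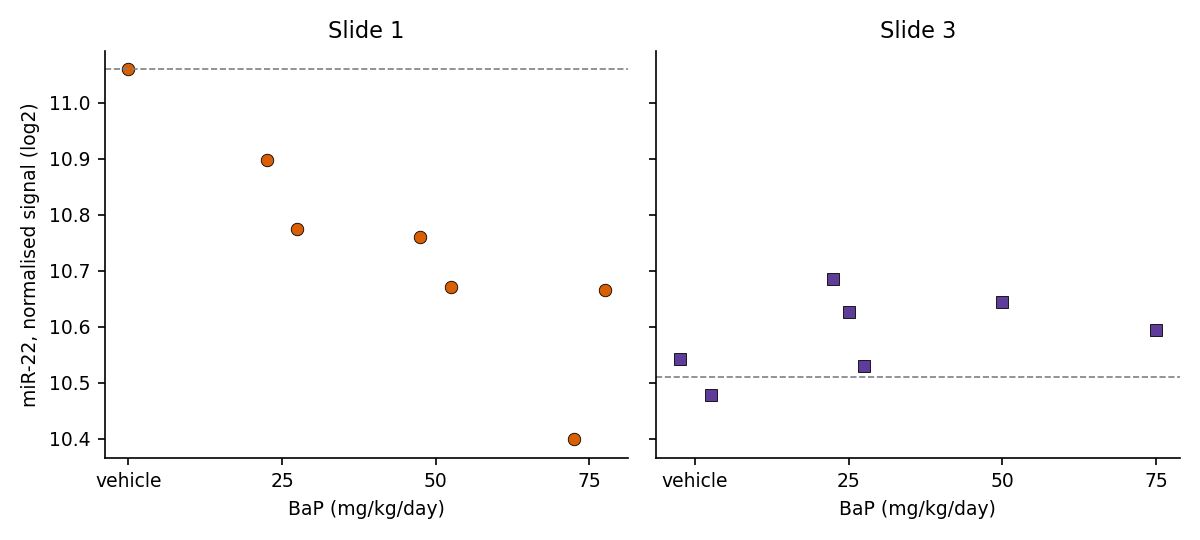
Normalised miR-22 signal (log2) by dose within slide 1 (left) and slide 3 (right), the slides that held controls, 1 point per array, with a dashed line at the mean of the slide's controls. On slide 1 all 6 dosed arrays lie below the single control at 11.06, and on slide 3 4 of 5 dosed arrays lie above both controls. How many other miRNAs do so was not counted.

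The sign turned with 1 control and with the choice of signal. Without the slide 1 control the changes from vehicle were +0.15 ± 0.09, +0.07 ± 0.10 and +0.008 ± 0.10 in order of dose (limma, FDR-adjusted P = 0.863, 0.837 and 0.985). With that control kept but the total gene signal of the scanner, background subtracted, in place of the spot median, they were +0.10, +0.04 and +0.02. Without the 7 arrays of slide 3 they were -0.22, -0.40 and -0.47. Only that control was then left, its spread was assumed to be that of the other groups, and no call is drawn from these values. Without slide 1 they were +0.10, +0.10 and +0.12.

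The 2 probes gave the same picture of dose. At 75 mg/kg/day A_54_P1309 changed by -0.17 ± 0.11 (limma, FDR-adjusted P = 0.357) and A_54_P1310 by -0.17 ± 0.12 (FDR-adjusted P = 0.380), where 8 of 112 probes (7.14%) were called. At 50 mg/kg/day they changed by -0.10 and -0.12, with 2.68% of probes called, and at 25 mg/kg/day by -0.04 and 0.03, with 0 of 112 called (0%) and 10 (8.93%) at an unadjusted P under 0.05. Their trends were -0.06 and -0.07 for each 25 mg/kg/day (FDR-adjusted P = 0.309 and 0.254), with 9.82% of probes called.

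The probes differed in how they followed the slides. The log2 signal of A_54_P1309 ran from 9.76 to 10.46 on slide 1, from 9.25 to 9.49 on slide 2 and from 9.17 to 9.37 on slide 3. That of A_54_P1310 moved the other way and ran from 11.04 to 11.67 on slide 1, from 11.73 to 11.92 on slide 2, and from 11.72 to 12.06 on slide 3. Neither range on slide 1 overlapped that on slides 2 or 3. Against slide 1, A_54_P1309 was lower on slide 3 (-0.85 ± 0.08, limma, FDR-adjusted P = 1.03e-07) while A_54_P1310 was higher (0.45 ± 0.08, FDR-adjusted P = 0.000123). A slide 3 effect was called in 67% of the probes. In the mean of both probes most of this cancelled, leaving -0.20 ± 0.07 for miR-22 on slide 3 (FDR-adjusted P = 0.0252, with 68.1% of miRNAs called).

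The difference between the probes (A_54_P1310 minus A_54_P1309, log2) ran from 1.06 to 1.52 on slide 1, from 2.40 to 2.48 on slide 2, and from 2.48 to 2.76 on slide 3. As a ratio of linear signals, this was 2.08 to 2.87 on slide 1 and 5.27 to 6.76 on the other slides. The step was 1.17 ± 0.07 from slide 1 to slide 2 and 1.30 ± 0.06 from slide 1 to slide 3 (limma over the 41 miRNAs with at least 2 kept probes, FDR-adjusted P = 3.17e-11 and 2.1e-13). The same difference, taken in each miRNA as its probe of higher mean minus that of lower mean, passed the threshold as larger on slide 2 in 33 of 41 miRNAs (80.5%) and on slide 3 in 34 (82.9%), and as smaller in 0. The steps of miR-22 were the second largest of the 41. Dose did not move the probe difference past the threshold (0.07, -0.02 and 0.00005 in order of dose, FDR-adjusted P = 0.867, 0.804 and 1.000). Slide 1 was extracted with another grid and design file than slides 2 and 3, by the file headers, and its part in these steps was not tested. Each slide also had its own scan date, so slide and scan date cannot be told apart.

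**Figure D3:**
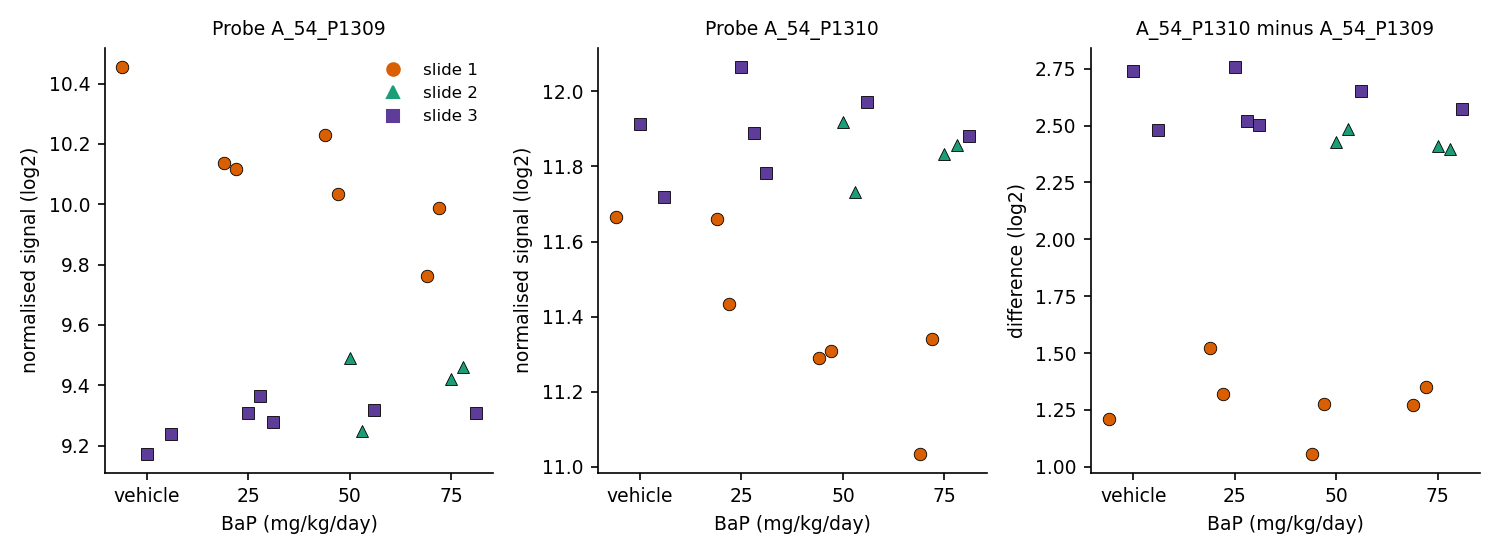
Normalised log2 signal of probes A_54_P1309 (left) and A_54_P1310 (middle) and their difference (right) by dose of BaP in mg/kg/day, 1 point per array, with colour and shape for the slide. Slide 1 stands apart in all panels, with differences of 1.06 to 1.52 against 2.40 to 2.76 on the other slides, at every dose.

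Of the variance of miR-22 over the 18 arrays, the slide took 23.7%, dose after slide took 16.7% and 59.6% was left. The median share of the slide over the 69 miRNAs was 54.9%. The SD left after both terms was 0.143 for miR-22, against a median of 0.081. It was the tenth largest of the 69. The SD between single spots of a probe on an array had medians of 0.115 and 0.075 before normalisation. That is not a like measure, because the miR-22 value is the mean of 2 probes, each a median over its spots.

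miR-34a, the p53 target, behaved differently from miR-22 on the same arrays. Its normalised log2 signal was 5.64, 5.89 and 6.23 in vehicle and rose at 50 mg/kg/day by 1.17 ± 0.18 (limma, FDR-adjusted P = 0.000714) and at 75 mg/kg/day by 2.07 ± 0.18 (FDR-adjusted P = 5.4e-07), with a call of a rise in each of 16 alternatives. At 25 mg/kg/day its change was 0.43 ± 0.17 (FDR-adjusted P = 0.378). In vehicle its probe A_54_P2498 was present on 0 of 3 arrays and A_54_P2499 on 2 of 3, and their signals were only 0.970 to 1.33 times the negative controls. A_54_P2498 passed the filter through the 50 and 75 mg/kg/day groups alone. A_54_P2499 also missed the filter in vehicle and passed it through the dosed groups alone, at 25, 50 and 75 mg/kg/day. It rose by 1.48 ± 0.19 and 2.52 ± 0.19 at the higher doses (limma, FDR-adjusted P = 0.000171 and 1.68e-07). Both probes thus entered through groups in which miR-34a was higher, and these calls are not free of the filter. With a vehicle level so near background, the size of the rise is not settled, and with background-subtracted total gene signal it was 3.59 and 5.05.

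The log2 signal of miR-34a minus that of miR-22 was -5.42, -4.65 and -4.25 in the vehicle animals. At 25 mg/kg/day it was between -4.98 and -3.73, overlapping vehicle. At 50 mg/kg/day it was between -4.00 and -3.56 and at 75 mg/kg/day between -3.03 and -2.51, above every vehicle array in 5 of 5 animals each. The mean difference from vehicle was 0.40, 1.04 and 2.00 in order of dose (exact permutation test, two-sided P = 0.357, 0.0179 and 0.0179, the last 2 the smallest that 56 splits allow, and 0.357, 0.0268 and 0.0268 after Benjamini-Hochberg adjustment over the 3 doses). Within slides it was 0.47, 1.17 and 2.30 (exact P = 0.0667, 0.111 and 0.111, where 0.111 is the smallest that 9 arrangements allow, and 0.111 at each dose after adjustment). With total gene signal the differences were 1.52, 3.50 and 4.98 (exact P = 0.0357 at 25 mg/kg/day), and without the slide 1 control that at 25 mg/kg/day was 0.079. On both slides with controls, the difference was larger at 75 than at 25 mg/kg/day. The miR-34a value averages both its probes, and both passed the filter only through dosed groups, A_54_P2498 through those at 50 and 75 mg/kg/day. These exact tests used the same probes, so they add no independent support for a rise. How often other miRNAs stood above every vehicle array was not counted.

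**Figure D4:**
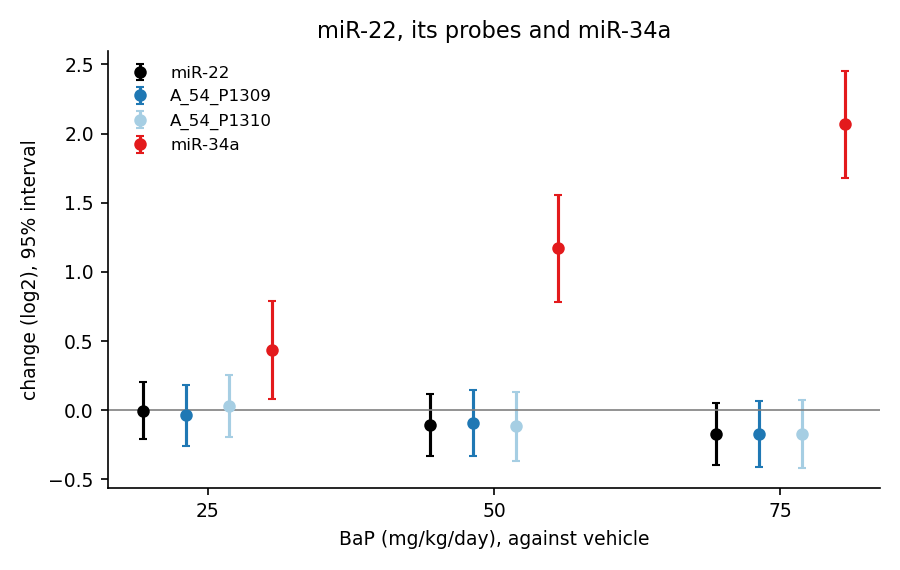
Change from vehicle (log2, with 95% interval) of miR-22, of each of its probes and of miR-34a at each dose of BaP (mg/kg/day), from the model with dose and slide. The miR-22 and probe intervals include 0 at each dose, and those of miR-34a do not, although at 25 mg/kg/day its adjusted P was 0.378.

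miR-22 was set beside lists of miRNAs linked to p53 or to liver metabolism, and was counted in neither list itself. The p53-linked list holds miRNAs induced by p53 and also some that can repress it, so its median has no single expected direction. Of 22 p53-linked miRNAs 12 passed the filter on dim probes. At 75 mg/kg/day 1 of these 12 (miR-34a) was called higher and 0 lower (over all 69, 1.45% higher and 4.35% lower), and their median change was -0.01, against -0.03 over all 69 miRNAs and -0.17 for miR-22. miR-15b, which represses Bcl2 and cell cycle genes, had a change of 0.16 (FDR-adjusted P = 0.061) and passed the threshold in the trend (0.06 for each 25 mg/kg/day, FDR-adjusted P = 0.0166). That trend was called in 9 of 16 alternatives, and was -0.002 with array medians centred. For miR-125b-5p, which can repress p53 itself, the change at 75 mg/kg/day was -0.11 (FDR-adjusted P = 0.225), and for miR-15a it was -0.13 (FDR-adjusted P = 0.289). At 50 mg/kg/day 1 of 12 (miR-34a) was called, against 2.9% of all 69. At 25 mg/kg/day 0 were called, with 1 of 12 at an unadjusted P under 0.05, against 0% and 10.1%. The balance of calls over all 69 at 75 mg/kg/day, 1 higher and 3 lower, turned to 9 higher and 0 lower with total gene signal and to 3 higher and 0 lower with processed signal.

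Of 21 miRNAs linked to liver metabolism 15 passed the filter. At 75 mg/kg/day 1 of the 15 (again miR-34a, which is in both lists) was called higher and 0 lower (over all 69, 1.45% and 4.35%), with a median change of 0.02 against -0.03 over all. The 50 mg/kg/day comparison called 1 of 15 (2.9% over all), and at 25 mg/kg/day 0 were called, with 3 of 15 at an unadjusted P under 0.05 (0% and 10.1% over all). miR-148a, a regulator of LDL receptor expression, had -0.22 (FDR-adjusted P = 0.0669). miR-27a, which represses genes of lipid storage, had 0.15 (FDR-adjusted P = 0.0926), and miR-33, which lies in an intron of Srebf2 and represses cholesterol export, had 0.13 (FDR-adjusted P = 0.112).

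Over the 18 arrays, with slide means removed, the miRNAs most like miR-22 were miR-126-3p (Pearson r = 0.75, Spearman rho = 0.74), miR-139-5p (r = 0.71, rho = 0.65) and let-7c (r = 0.69, rho = 0.49). The least like was miR-23a (r = -0.61, rho = -0.46). The median r over the other 68 miRNAs was 0.17. These values describe arrays that share a normalisation, and no test was made. Without the 2 arrays farthest from the median of miR-22 (the slide 1 control and the lowest array at 75 mg/kg/day) r was 0.65, 0.53, 0.13 and -0.20 in the same order, so the likeness of let-7c and the unlikeness of miR-23a rested on those arrays. Of the 3, let-7c fell at 75 mg/kg/day (-0.27, limma, FDR-adjusted P = 0.00533). This call held in 11 of 17 alternatives and was lost without the slide 1 control (-0.21, FDR-adjusted P = 0.107), without the slide term, and with array medians centred, processed signal or total gene signal (-0.03), among others. miR-126-3p did not pass the threshold (-0.06, FDR-adjusted P = 0.519), nor did miR-139-5p (-0.06).

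The cell types of the tissue were followed by their miRNAs. The hepatocyte markers miR-122, miR-192 and miR-194 were present on all 18 arrays (3 of 3). Their summed normalised signal was between 11878 and 12117 in vehicle and between 11632 and 15169 at 75 mg/kg/day. This sum is of linear signals and follows mostly miR-122 (mean log2 signal 13.57, against 8.30 for miR-192 and 6.65 for miR-194). Of 5 blood markers 3 were tested, with sums between 600 and 863 in vehicle and between 358 and 1200 at 75 mg/kg/day, and 1 of the 5 was present on no array. The blood sums follow mostly miR-451 (mean log2 signal 8.93, against 6.40 for miR-144 and 6.28 for miR-223). Of 5 mesenchymal markers 1 was tested and 3 were present on no array. The one tested, miR-199a-3p, fell at 75 mg/kg/day (-0.22, limma, FDR-adjusted P = 0.00931). This call held in 9 of 17 alternatives and was lost without the slide 1 control (-0.20, FDR-adjusted P = 0.107), without the slide term and with either background-subtracted signal, among others, with the sign kept in each. Of 2 endothelial markers miR-126-3p was tested and the other was present on no array. Of 4 striated muscle markers 0 were tested and 2 were present on no array. The part of cell composition in the miR-22 values was not tested.

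**Figure D5:**
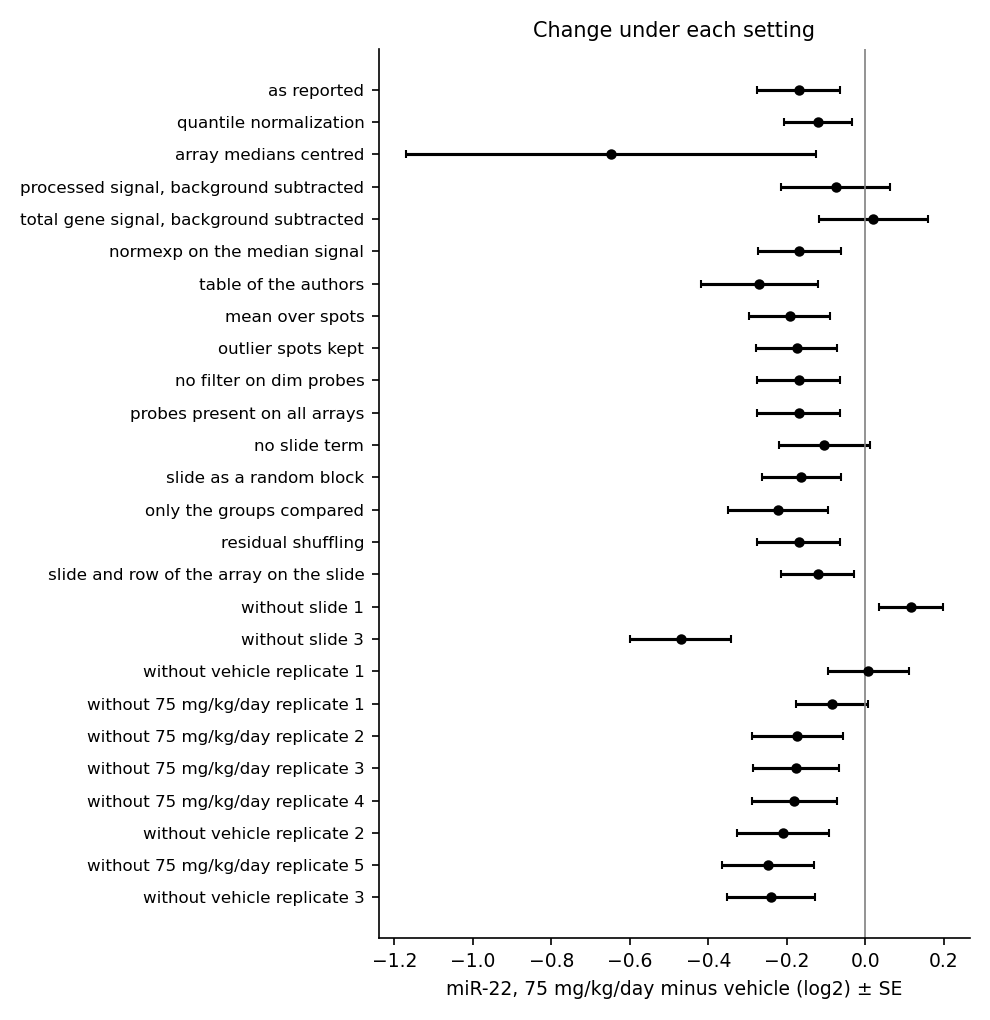
Change of miR-22 from vehicle to 75 mg/kg/day (log2, point, with its SE as the bar) under the processing reported and each alternative, and without each vehicle array or each array at 75 mg/kg/day. The value as reported is -0.17, that without slide 1 is +0.12 and that without slide 3 is -0.47.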

How the data were processed

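The authors labelled RNA with cyanine 3, hybridised it to 1-colour Agilent miRNA arrays and extracted spots with Agilent Feature Extraction 10.7.3.1. The scanner values they deposited are linear intensities of single spots, before any normalisation across arrays. The authors also deposited a table of log2 values, 1 per miRNA name and array, used here as an alternative only. It correlated with the scanner values at 0.990 or above over 574 names, its column medians were between 5.74 and 5.76, and its centring is unknown.

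As in the study's methods, background was not subtracted, log2 median signals were normalised by cyclic loess, the median over replicate spots was taken, and slide was a block. Outlier spots were removed after the loess and before the median over replicate spots. A probe counted as present on an array when 0.5 or more of its spots were flagged well above background, and in a group when 0.8 or more of its arrays met this, and was kept if present in at least 1 group, which left 112 probes and 69 names. Present probes of a miRNA were averaged. Non-control spots had median intensities between 39.5 and 69 and between 5.72% and 16.5% were well above background. limma 3.58.1 (R 4.3.3) fitted all 18 arrays, with Benjamini-Hochberg adjustment over 69 miRNAs or 112 probes and a threshold of 0.05. A simulation drawn from the same model, with independent errors, checked only that the fit recovers known changes. It does not test whether the model suits these data.

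The miRNA, the lists, the markers and the tests were chosen with earlier results of these data known. Named miRNAs were miR-22, its other arm, miR-34a, the 3 highest and 1 lowest by likeness, and of each list the 4 with the smallest P at 75 mg/kg/day plus those past the threshold. Alternatives covered normalisation, background, filter, slide, test and each array left out, and the probe difference, the interaction, the settings that drop a slide or add array position and the repeats for other named miRNAs were chosen after seeing the data. Each array was 1 animal, and the number of arrays limits the precision.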

Additional observations from a re-analysis of the deposited data

Results flagged for a closer look

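In the group at 75 mg/kg/day 1 animal stood apart in miR-22 by Dixon's criterion. Its normalised log2 signal was 10.40, the next value was 10.59, and the gap took 0.733 of the range of the group. It was 1 of 12 sets of 5 values checked (miR-22, its 2 probes and miR-34a minus miR-22 at each dose), and chance gives about 1 such mark in 20. Without this animal the change of miR-22 at 75 mg/kg/day was -0.09 (limma, FDR-adjusted P = 0.636), the trend -0.03 for each 25 mg/kg/day and the step from 50 to 75 mg/kg/day 0.009. The array lay on slide 1, and neither probe alone was marked.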

How the results depend on the processing

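Centring array medians, with no loess, moved miR-22 most, to -0.61, -0.58 and -0.65 at the 3 doses (SE 0.48 to 0.52) and to -0.17 in the trend, as reported -0.004, -0.11, -0.17 and -0.06. The median of all 69 miRNAs then moved to -0.25 at 75 mg/kg/day, and miR-22 stood -0.40 below it. Other settings turned the sign of its small changes. At 25 mg/kg/day (reported -0.004) the change was 0.11 with processed signal, 0.10 with total gene signal, 0.00946 without the slide term, 0.00592 with array position and 0.10 without slide 1. At 50 mg/kg/day it was 0.0401 with total gene signal and 0.10 without slide 1. At 75 mg/kg/day it was 0.0203 with total gene signal, 0.12 without slide 1 and -0.47 without slide 3 (adjusted P = 0.0427, against 1 control whose spread was taken from the other groups). The step from 25 to 50 mg/kg/day was 0.0282 with array medians centred and 0.0458 in the authors' table, those of 75 over 50 and 75 over 25 were 0.0143 and 0.0120 without slide 1, and the trend was 0.0346 without slide 1 and -0.14 without slide 3 (adjusted P = 0.0397, with the same limit). A_54_P1309 gave 0.0202 with quantiles, 0.0832 with processed signal and 0.0187 without the slide term at 25 mg/kg/day, and 0.00200 and 0.0417 with the last pair at 50 mg/kg/day, while A_54_P1310 gave -0.0621 with quantiles at 25 mg/kg/day. The exact comparison within slides gave -0.0132 at 25 mg/kg/day (0.00946 over all arrays). miR-34a minus miR-22 was 1.52 with total gene signal at 25 mg/kg/day (exact P = 0.0357) and 3.50 and 4.98 at the higher doses, and within slides 1.17 and 2.30 at 50 and 75 mg/kg/day (exact P = 0.111). The causes were not tested.

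Leaving out 1 array gave between -0.0810 and 0.150 at 25, -0.176 and 0.0723 at 50, and -0.248 and 0.00760 at 75 mg/kg/day, between -0.168 and -0.0748, -0.115 and 0.00904, and -0.241 and -0.0786 for the steps 50 over 25, 75 over 50 and 75 over 25, and between -0.0872 and -0.0284 for the trend. A_54_P1309 ranged from -0.123 to 0.136, -0.173 to 0.107, -0.250 to 0.0316 and -0.0841 to -0.0162 (doses, then trend), and A_54_P1310 from -0.0719 to 0.163, -0.213 to 0.0375, -0.264 to -0.0164 and -0.0915 to -0.0374. miR-34a minus miR-22 ranged from 0.0787 to 0.664, 0.72 to 1.30 and 1.68 to 2.26. No call of miR-22 arose from leaving out an array.

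The limits are the 3 controls, 1 of them on slide 1. Calls at 75 mg/kg/day (4 as reported) ranged from 1 to 9 over settings and over arrays left out, at 50 mg/kg/day (2) from 0 to 5, at 25 mg/kg/day (0) up to 7 in the authors' table, in the trend (7) from 1 to 13, and in the steps from 0 to 2 for 50 over 25 (1), 0 to 1 for 75 over 50 (1) and 0 to 7 for 75 over 25 (2). No paired analysis was possible because replicate numbers only follow listing order.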
